A study of Rattus norvegicus with 9 samples.

Results

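The genes examined here move calcium into the smooth muscle cell, out of its internal store, and back. There are 9 of them, chosen by name from the array annotation: the L-type calcium channel gene Cacna1c, the cation channel genes Trpc1 and Trpc6, the store sensors Stim1 and Stim2, the channel gene Orai1, the store release channel gene Itpr1, and the pump genes Atp2a2 and Atp2b1. They carried 17 of the 41012 non-control probes on the array. Of these, 16 were among the 26653 probes kept for testing, and all 9 genes were among the 22106 genes tested. The rule reads names and no measured value, though the genes were proposed with earlier results of these data known.

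The cells were pulmonary arterial smooth muscle cells (PASMCs) of male SD rats at culture generation 4, and total RNA was measured on 9 one-colour Agilent arrays. The 3 groups of 3 arrays were hypoxia with quercetin, a plant flavonoid, hypoxia alone, and normoxia. Hypoxic cells were kept in a sealed chamber at 1% oxygen and 5% carbon dioxide, and normoxic cells in a 37 °C incubator. All had spent 24 h without serum and then 24 h in medium with serum and either quercetin or 0.1% DMSO, the vehicle. The sources used here do not give the quercetin dose or the rats' ages. Separate cultures are not named for the arrays of a group, and each p-value therefore reflects array-to-array spread that may be technical.

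Calcium entering a smooth muscle cell, or released from its sarcoplasmic reticulum, triggers contraction and feeds growth signals. The L-type channel opens on depolarisation, while TRPC channels pass calcium and sodium after receptor activation or store depletion. When the store empties, STIM proteins in its membrane sense the loss and open ORAI channels in the plasma membrane, which is store-operated calcium entry. Inositol trisphosphate receptors let calcium out of the store, the reticulum pump refills it, and the plasma membrane pump exports calcium from the cell. In pulmonary artery, this machinery is known for its part in hypoxic vasoconstriction and in muscle cell growth.

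Each reported value comes from 1 array probe per gene, the brightest. The oligonucleotides, whole for Stim2, Orai1, Trpc6 and Atp2b1 and their last 30 bases for the others, are printed to show what each value measured. They run 5′ to 3′ with rn4 coordinates from the array files. Capitals in the Stim1 stretch mark AATAAA, the polyadenylation signal. The Trpc1 probe has no position in the files, the Stim2 probe spans 583 bases of genome, and exons and UTRs at the probes are not annotated here.
Stim1 probe A_44_P710285 (chr1:159925800-159925829, plus strand): gattctttgaagtccAATAAAgcatgtagg
Stim2 probe A_44_P331567 (chr14:61649208-61649790, minus strand): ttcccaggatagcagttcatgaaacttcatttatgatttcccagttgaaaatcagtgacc
Orai1 probe A_42_P673973 (chr12:34631952-34632011, minus strand): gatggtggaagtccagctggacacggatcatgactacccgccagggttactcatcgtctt
Trpc1 probe A_44_P242924: acgaggtatattttgaatgacagcatattg
Trpc6 probe A_44_P285756 (chr8:5565733-5565792, plus strand): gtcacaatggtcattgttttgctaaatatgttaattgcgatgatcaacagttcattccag
Cacna1c probe A_44_P203145 (chr4:154895974-154896003, minus strand): ataatatccattttaaaatacgattgtgag
Itpr1 probe A_44_P215056 (chr4:144029984-144030013, plus strand): agagttctgaagcaagtcaagtttgtaagt
Atp2a2 probe A_44_P187080 (chr12:35313118-35313147, plus strand): gaggtttgcctgtctcgcttgtgcagaaaa
Atp2b1 probe A_44_P245665 (chr7:36599842-36599901, plus strand): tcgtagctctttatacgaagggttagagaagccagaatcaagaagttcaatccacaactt

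Values are log2 processed intensities minus the array's 75th percentile, so 1 unit is a doubling, and they compare arrays for 1 probe but not different probes. Calls rest on limma's two-sided moderated test, with p adjusted by Benjamini and Hochberg's method over all genes and a threshold of 0.05, and changes carry their standard error (SE). Hypoxia markers moved with the labels: Car9, a carbonic anhydrase, rose by 2.63 ± 0.35 in hypoxia against normoxia (adjusted p = 2.89e-04), Pgk1, a glycolytic enzyme, by 2.43 ± 0.31 (adjusted p = 2.49e-04) and Vegfa, an angiogenic factor, by 1.00 ± 0.23 (adjusted p = 0.00546). With quercetin their means lay between those of hypoxia and normoxia. For quercetin, hypoxia and normoxia they were 3.31, 4.34 and 1.72 for Car9 and 6.92, 8.41 and 5.98 for Pgk1. Those of Vegfa were 5.41, 5.66 and 4.67. Nqo1, a target of the oxidative stress factor NRF2, fell by 1.29 ± 0.10 in hypoxia against normoxia (adjusted p = 1.72e-05), rose by 1.47 ± 0.10 with quercetin against hypoxia (adjusted p = 1.23e-05), and differed by 0.17 ± 0.10 between quercetin and normoxia (adjusted p = 0.193). Cyp1a1 was not among the genes kept. Of 9 smooth muscle markers, 8 had a tested probe, and all 8 were well above background on all 3 arrays of each group. No tested probe bore the name Acta2. The 3 hypoxia arrays shared a slide and scan with normoxia replicate 3, the other 2 normoxia arrays shared an earlier scan day, and the quercetin arrays had a slide to themselves. Slide and quercetin therefore cannot be told apart, against hypoxia or against normoxia, and hypoxia against normoxia can be read within a slide only through normoxia replicate 3. Scaling to the 8 spike-in probes instead of the percentile moved the median change of all genes to -0.44 from 0.10 in hypoxia against normoxia, to 0.03 from -0.08 in quercetin against hypoxia, and to -0.39 from 0.04 in quercetin against normoxia.

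In hypoxia against normoxia, 7 calcium genes fell and 2 rose, so all 9 passed the test. With slide as a block 6 passed, all lower, and Trpc1, Trpc6 and Stim1 did not, where 9565 of the 22106 genes were called. The background of the main fit was high: 64.2% of all genes were called, 35.3% higher and 28.9% lower. The largest falls were those of Stim2, Orai1, Atp2b1 and Atp2a2, and the genes that rose were Trpc1 and Trpc6. The median change over the 9 genes was -0.51, against 0.10 over all genes tested. Groups did not overlap for 8 of the 9 genes, Trpc6 being the exception, against 71.7% of all genes. A change of at least 2-fold was seen in 4 of the 9 genes, Trpc1, Stim2, Orai1 and Atp2b1, against 24.1% of all genes.

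With quercetin in hypoxia, against hypoxia alone, 6 of the 9 genes rose, 1 fell and 2 were not called. Of all genes, 58.4% were called, 26.9% higher and 31.6% lower. Stim1, Stim2, Orai1, Itpr1, Atp2a2 and Atp2b1 rose, and Trpc1 fell. The median change was 0.57, against -0.08 over all genes, and only Stim2 passed 2-fold, as did 20.6% of all genes. Both comparisons use the same hypoxia arrays, so their directions are not independent of each other. Under median scaling, under quantile normalization and in the authors' deposited value table the split was 6 higher and 2 lower, as Trpc6 then passed the test.

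Against normoxia, cells in hypoxia with quercetin differed in 4 of the 9 genes, 1 higher and 3 lower, where 44.3% of all genes were called, 23.0% higher and 21.3% lower. Stim1 was higher, and Cacna1c, Orai1 and Atp2b1 were lower. The median change was 0.07, against 0.04 over all genes. None of the 9 changed 2-fold, against 12.9% of all genes. Under spike-in scaling the split was 0 higher and 5 lower, where the median of all genes was -0.39. Stim1 and Stim2 then turned to a negative change, as given with the processing alternatives.

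**Figure D1:**
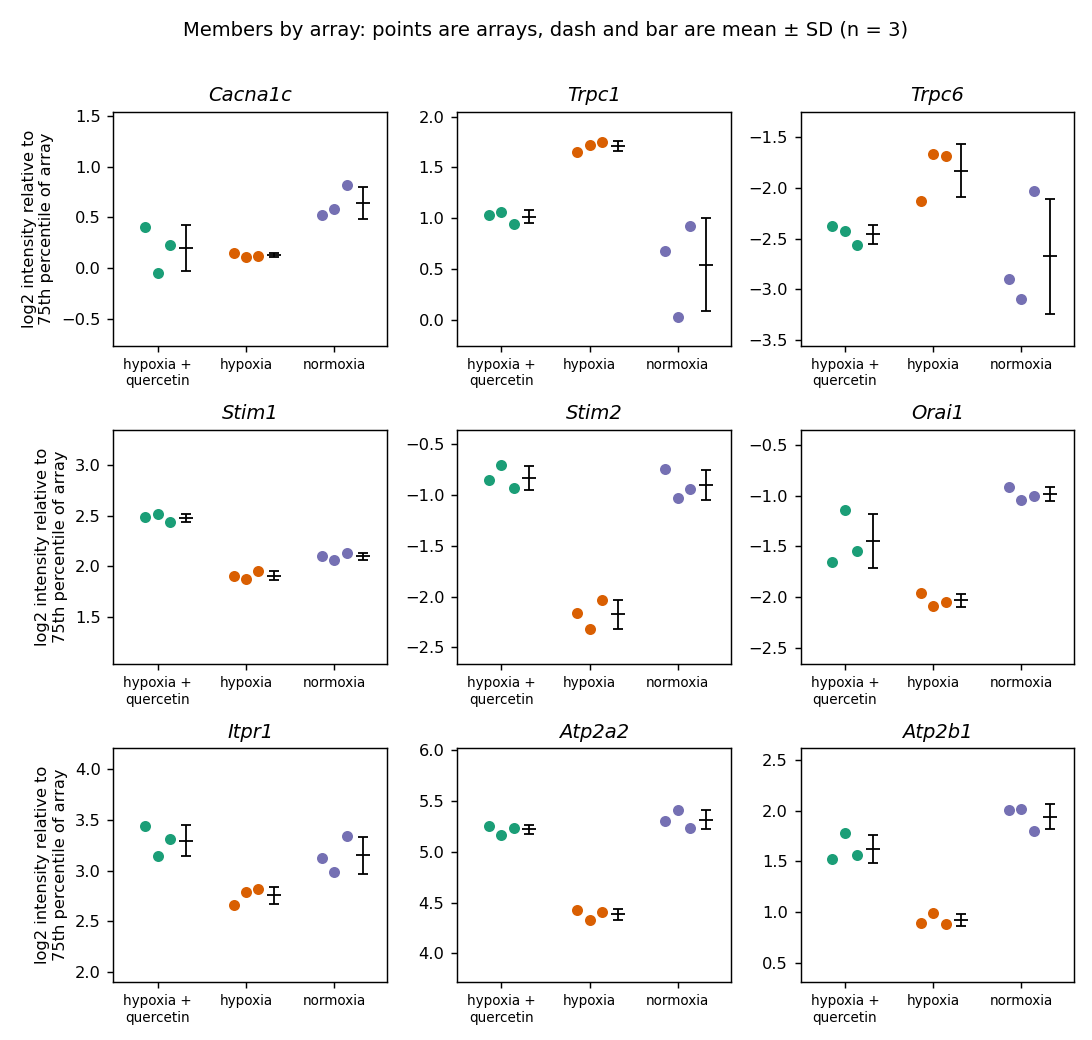
Log2 intensity relative to the array's 75th percentile (vertical axis, with a different centre but the same span in every panel) for the brightest probe of each gene in hypoxia with quercetin, hypoxia and normoxia. Points are arrays, and dash and bar are mean ± SD (n = 3); the hypoxia arrays lie apart from the normoxia arrays in every panel except that of Trpc6.

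Stim2, a sensor that responds to small store losses, showed the largest change of the 9 genes. Its arrays read -0.85, -0.70 and -0.93 in hypoxia with quercetin, -2.16, -2.32 and -2.03 in hypoxia and -0.74, -1.03 and -0.93 in normoxia. The hypoxia arrays lay below all 6 others, and the quercetin and normoxia arrays overlapped. Stim2 fell by 1.27 ± 0.12 in hypoxia against normoxia, or 2.41-fold (limma, adjusted p = 3.93e-05), and rose by 1.35 ± 0.12 with quercetin against hypoxia, or 2.54-fold (adjusted p = 3.89e-05). Against normoxia, quercetin cells differed by 0.07 ± 0.12 (95% interval -0.19 to 0.34, adjusted p = 0.639), and under spike-in scaling they were lower and passed (-0.36, adjusted p = 0.0277). Within the shared slide, hypoxia minus the 1 normoxia array was -1.24, the value with slide as a block.

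Stim1, the main trigger of store-operated entry, moved less. It stood at 2.48, 2.51 and 2.44 in hypoxia with quercetin, 1.90, 1.87 and 1.95 in hypoxia and 2.10, 2.06 and 2.13 in normoxia. The groups did not overlap, and the order was quercetin, normoxia, hypoxia from high to low. The fall in hypoxia against normoxia was 0.19 ± 0.07, close to the threshold (adjusted p = 0.0480), and it did not pass with slide as a block (-0.22, adjusted p = 0.143). It also missed the threshold without any 1 of normoxia replicates 1 and 3, of the 3 hypoxia arrays, or of quercetin replicates 1 and 3, with changes of -0.21 to -0.17 and adjusted p of 0.0661 to 0.149. With quercetin Stim1 rose by 0.57 ± 0.07 against hypoxia (adjusted p = 2.95e-04) and by 0.38 ± 0.07 against normoxia (adjusted p = 0.00370), although against normoxia the change was -0.05 under spike-in scaling (adjusted p = 0.669).

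Orai1 encodes the pore that STIM proteins open. Its arrays read -1.65, -1.14 and -1.54 in hypoxia with quercetin, -1.96, -2.09 and -2.05 in hypoxia and -0.91, -1.04 and -0.999 in normoxia. The 3 groups did not overlap, with the quercetin arrays between hypoxia and normoxia and more widely spread. Orai1 fell by 1.05 ± 0.13 in hypoxia against normoxia, or 2.07-fold (adjusted p = 2.22e-04), and within the shared slide the difference was -1.03. With quercetin it rose by 0.59 ± 0.13 against hypoxia (adjusted p = 0.00544) and was lower than normoxia by 0.46 ± 0.13 (adjusted p = 0.0222). The last call was lost without normoxia replicate 1 (-0.42), quercetin replicate 1 (-0.36) or quercetin replicate 3 (-0.41). With scan day as a block it was -0.45 (adjusted p = 0.137), and under normexp background correction -0.16 (adjusted p = 0.342).

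Trpc1, a channel linked to store- and receptor-operated entry, was the gene of the 9 that rose most in hypoxia against normoxia. It read 1.04, 1.06 and 0.95 in hypoxia with quercetin, 1.65, 1.72 and 1.75 in hypoxia and 0.68, 0.03 and 0.92 in normoxia. The hypoxia arrays were above all others, and the quercetin arrays were above the normoxia arrays, among which replicate 2 lay far below the other 2. Trpc1 rose by 1.17 ± 0.20 in hypoxia against normoxia, or 2.24-fold (adjusted p = 0.00115). With slide as a block the difference was 0.79 and missed the threshold (adjusted p = 0.0612). With quercetin it fell by 0.69 ± 0.20 against hypoxia (adjusted p = 0.0164), a call lost without quercetin replicate 3 (-0.66, adjusted p = 0.0517). Against normoxia the quercetin cells differed by 0.47 ± 0.20 (adjusted p = 0.0866), and by 0.66 without normoxia replicate 3, which passed (adjusted p = 0.0198).

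Trpc6, a diacylglycerol-activated channel, depended on single arrays. It read -2.38, -2.43 and -2.56 in hypoxia with quercetin, -2.13, -1.67 and -1.69 in hypoxia and -2.89, -3.10 and -2.03 in normoxia. Normoxia replicate 3 sat within reach of the hypoxia arrays, above the lowest of them, while normoxia replicates 1 and 2 were the lowest of all 9. The rise in hypoxia against normoxia was 0.84 ± 0.26 (adjusted p = 0.0211), and a slide block, which sets hypoxia against normoxia replicate 3, made it 0.20 (adjusted p = 0.512). It missed the threshold without normoxia replicate 1 (0.73), normoxia replicate 2 (0.63), hypoxia replicate 2 (0.76) or hypoxia replicate 3 (0.77), and under spike-in scaling (0.30). With quercetin the change against hypoxia was -0.62 ± 0.26 (adjusted p = 0.0697). The same change, -0.62 in both, passed in fits without normoxia replicate 2 (adjusted p = 0.0486) or normoxia replicate 3 (adjusted p = 0.00748). Against normoxia it was 0.22 ± 0.26 (adjusted p = 0.537), and 0.54 without normoxia replicate 3 (adjusted p = 0.0300).

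Cacna1c, the pore of the L-type channel through which depolarised smooth muscle takes up calcium, was lower in both hypoxic groups. It read 0.41, -0.04 and 0.22 in hypoxia with quercetin, 0.15, 0.11 and 0.12 in hypoxia and 0.52, 0.58 and 0.82 in normoxia. The hypoxic groups overlapped each other and lay below normoxia. Cacna1c fell by 0.51 ± 0.13 in hypoxia against normoxia (adjusted p = 0.00853), and within the shared slide the difference was -0.69. The difference between quercetin and hypoxia was 0.07 ± 0.13 (95% interval -0.23 to 0.37, adjusted p = 0.669). Quercetin cells were lower than normoxia by 0.44 ± 0.13 (adjusted p = 0.0238). This missed the threshold without normoxia replicate 3 (-0.35), quercetin replicate 2 (-0.32) or quercetin replicate 3 (-0.46).

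Itpr1 encodes an inositol trisphosphate receptor, the channel through which hormones release the store. It read 3.44, 3.14 and 3.31 in hypoxia with quercetin, 2.66, 2.79 and 2.82 in hypoxia and 3.13, 2.98 and 3.34 in normoxia. The hypoxia arrays were below the other 6, and the quercetin and normoxia arrays overlapped. Itpr1 fell by 0.39 ± 0.12 in hypoxia against normoxia (adjusted p = 0.0206). The fall missed the threshold without normoxia replicate 3 (-0.30, adjusted p = 0.0595) or hypoxia replicate 1 (-0.35, adjusted p = 0.0726). Within the shared slide it was -0.59. With quercetin Itpr1 rose by 0.54 ± 0.12 against hypoxia (adjusted p = 0.00535), a call lost under normexp background correction (0.44, adjusted p = 0.0557), and it differed from normoxia by 0.15 ± 0.12 (adjusted p = 0.366).

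Atp2a2 encodes the pump that refills the store. It read 5.26, 5.17 and 5.24 in hypoxia with quercetin, 4.43, 4.33 and 4.40 in hypoxia and 5.30, 5.41 and 5.23 in normoxia. All 3 hypoxia arrays were far below the other 6, and the quercetin and normoxia arrays overlapped. The fall in hypoxia against normoxia was 0.93 ± 0.08, or 1.91-fold (adjusted p = 3.28e-05), and -0.85 within the shared slide. The rise with quercetin against hypoxia was 0.83 ± 0.08, or 1.78-fold (adjusted p = 7.34e-05). Quercetin cells differed from normoxia by -0.10 ± 0.08 (95% interval -0.29 to 0.09, adjusted p = 0.380), and by -0.53 under spike-in scaling, which passed (adjusted p = 0.00733).

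Atp2b1, the plasma membrane calcium pump that lowers resting calcium, read 1.52, 1.78 and 1.56 in hypoxia with quercetin, 0.89, 0.99 and 0.89 in hypoxia and 2.01, 2.01 and 1.80 in normoxia. The groups did not overlap, and quercetin lay between hypoxia and normoxia. Atp2b1 fell by 1.02 ± 0.10 in hypoxia against normoxia, or 2.02-fold (adjusted p = 6.66e-05), and by 0.88 within the shared slide. It rose by 0.70 ± 0.10 with quercetin against hypoxia (adjusted p = 6.25e-04). The difference from normoxia was -0.32 ± 0.10 (adjusted p = 0.0358). That call was lost without any 1 array other than normoxia replicate 3 and quercetin replicate 2, with changes of -0.32 to -0.27, and with scan day as a block (-0.18, adjusted p = 0.366).

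**Figure D2:**
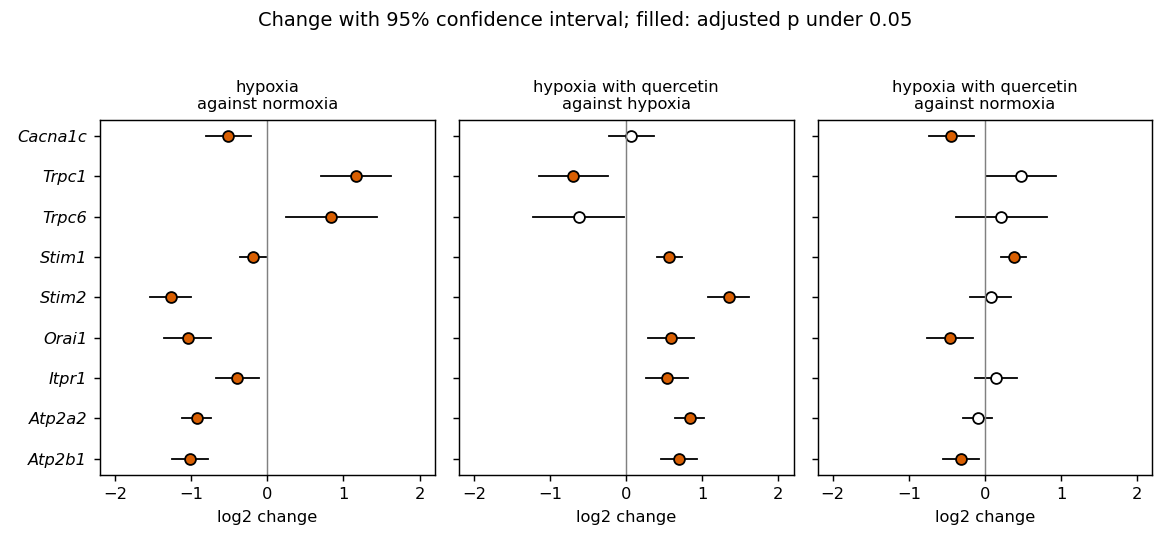
Log2 change of each gene (horizontal axis) with its 95% confidence interval from the limma fit, one panel per comparison; filled points passed an adjusted p of 0.05. All 9 points are filled in hypoxia against normoxia, 7 in hypoxia with quercetin against hypoxia and 4 in hypoxia with quercetin against normoxia.

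Further probes of 6 of the genes were read in a fit over all kept probes. In hypoxia against normoxia 6 of the 7 further probes fell, and with quercetin against hypoxia 6 of 7 rose. The falls include Cacna1c probe A_44_P435726, which was kept through normoxia alone, so its direction is not independent of that filter. The share of all kept probes called is not given here. Of all genes, 28.9% were called lower in hypoxia against normoxia and 26.9% higher with quercetin against hypoxia. The second Stim2 probe, A_44_P358664, fell by 1.24 ± 0.11 in hypoxia against normoxia (adjusted p = 3.05e-05) and rose by 1.21 ± 0.11 with quercetin against hypoxia (adjusted p = 4.34e-05). The second Atp2b1 probe, A_43_P12761, fell by 0.87 ± 0.10 in hypoxia (adjusted p = 1.29e-04), and the second Stim1 probe, A_43_P18329, by 0.24 ± 0.07 (adjusted p = 0.0209). The second Itpr1 probe, A_44_P176606, differed by -0.27 ± 0.11 in hypoxia and did not pass (adjusted p = 0.0588). Of the dim Cacna1c probes, A_44_P435726 was well above background on 0 of 3 hypoxia arrays and 3 of 3 normoxia arrays, and hypoxia was lower by at least 1.10-fold, and A_44_P132903 was not kept. That bound sets the normoxia mean against the lowest signal well above background on each hypoxia array, or the probe's own signal where higher.

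The probes of Atp2a2 differed most in size of change. One further probe, A_44_P282482, annotated to another transcript record of the gene, lies about 2.5 kb downstream of the first. Its arrays read -0.11, -0.35 and 0.06 in hypoxia with quercetin, -1.82, -1.95 and -1.89 in hypoxia and 0.36, 0.53 and 0.26 in normoxia, with no overlap between any 2 groups. It fell by 2.27 ± 0.12 in hypoxia against normoxia (adjusted p = 3.89e-06), and the other one, A_44_P187083, fell by 0.98 ± 0.09 (adjusted p = 3.59e-05). With quercetin A_44_P282482 rose by 1.75 ± 0.12 against hypoxia (adjusted p = 1.39e-05) and was lower than normoxia by 0.52 ± 0.12 (adjusted p = 0.00945). The last 30 bases of both further probes, to set beside the first, read as follows.
Atp2a2 probe A_44_P187083 (chr12:35312843-35312872, plus strand): agcagacttaggaaatgaatgtgtgtggtt
Atp2a2 probe A_44_P282482 (chr12:35315644-35315673, plus strand): acaagtgtacaatttagcataaggaatcgg

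The difference between a further probe and the brightest probe was tested on each array over 4547 such pairs of all genes, a test chosen after the values were seen. The change of A_44_P282482 differed from that of the first Atp2a2 probe by -1.34 ± 0.08 in hypoxia against normoxia (adjusted p = 1.78e-05). The difference was 0.92 ± 0.08 with quercetin against hypoxia (adjusted p = 1.57e-04) and -0.42 ± 0.08 with quercetin against normoxia (adjusted p = 0.0158). Of all pairs, 30.5%, 28.0% and 13.1% were called in the 3 comparisons in that order. The 2 Atp2b1 probes differed with quercetin against hypoxia, by -0.22 ± 0.06 (adjusted p = 0.0217). The other pairs of these 6 genes did not pass in any comparison.

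**Figure D3:**
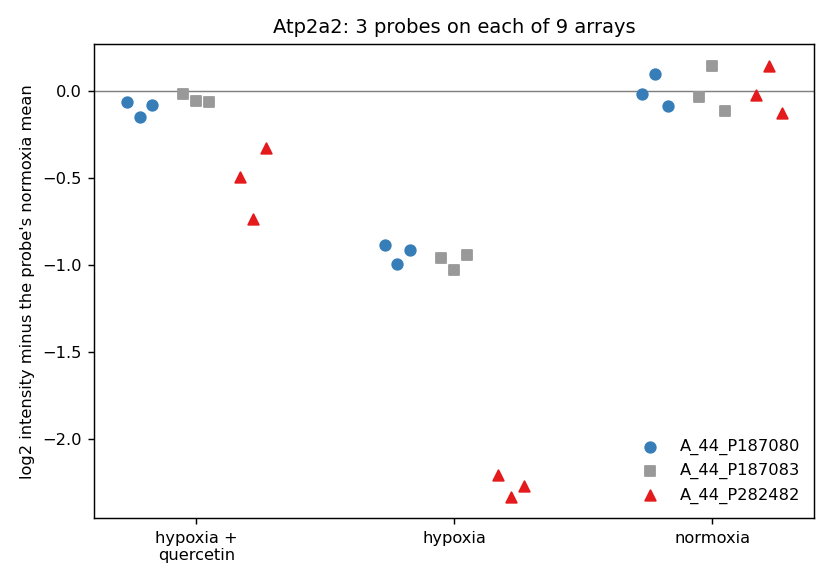
Log2 intensity of the 3 Atp2a2 probes on each array, each minus its own normoxia mean (vertical axis), in hypoxia with quercetin, hypoxia and normoxia (3 arrays each). The triangles of A_44_P282482 lie below the other 2 probes in hypoxia and in hypoxia with quercetin.

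Promoter sequence is shown because all 9 genes changed in hypoxia and hypoxia-inducible factors bind a short core, ACGTG or GCGTG. In RefSeq's promoter table (GRCr8), 8 of the 9 genes were matched, without Trpc1. Both cores were searched on both strands in the 250 bases before the gene start. A match was found in 4 of the 8, and in 36.7% of all 33469 promoters in the table. ACGTG was in 16.6% of all promoters and GCGTG in 25.9%, with some holding both. The 60 bases around each match follow, with the core in capitals as it reads on the gene's strand.
Stim1 promoter (chr1:166068108-166068167, plus strand): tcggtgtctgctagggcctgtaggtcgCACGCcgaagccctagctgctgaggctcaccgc
Stim2 promoter (chr14:61217235-61217294, minus strand): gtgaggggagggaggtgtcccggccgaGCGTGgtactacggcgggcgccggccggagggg
Orai1 promoter (chr12:39209221-39209280, minus strand): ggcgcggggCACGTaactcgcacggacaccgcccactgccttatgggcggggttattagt
Atp2a2 promoter (chr12:39733330-39733389, plus strand): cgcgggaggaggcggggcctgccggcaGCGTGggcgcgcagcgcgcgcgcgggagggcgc
In Orai1 and Stim1 the core lies on the opposite strand and reads CACGT and CACGC. Cacna1c, Trpc6, Itpr1 and Atp2b1 had no match in these bases. A match is a description of the letters, and no binding was measured.

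Genes with a pattern most like those of the 3 genes with the largest changes were sought among 11748 tested genes with a symbol, by Pearson's r over the 9 arrays. The arrays share their groups and slides, so r here mostly reads the 3 group means. Most like Stim2 were Glmp, Pmepa1 and Slc35f6 (r = 0.991 to 0.995), most like Trpc1 were Fstl3, Nkd2 and Trip10 (0.993 to 0.995), and most like Orai1 were Ing3, Nxt1 and Acsl4 (0.989 to 0.994).

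The wider calcium machinery was read from 8 lists of 128 genes, of which 95 were tested. In hypoxia against normoxia 48 rose and 23 fell, 74.7% of those tested, against 64.2% of all genes, and the median change was 0.41. Under spike-in scaling the split was 25 higher and 39 lower, where the median of all genes moved to -0.44 from 0.10. Each list's median minus that of all genes was the same under both scalings. Spike-in counts of the lists below are to be read beside that shift. With slide as a block 55 of the 95 were called, and 9565 of the 22106 genes. With quercetin against hypoxia 13 rose and 43 fell (58.9%, against 58.4% of all genes; median -0.31). Against normoxia, 25 were higher and 28 lower with quercetin (55.8%, against 44.3% of all genes, median -0.06). Under spike-in scaling these were 8 and 49, where the median of all genes was -0.39. The count of each list is to be read against the shares of all genes called higher and lower, which were 35.3% and 28.9% for hypoxia against normoxia, 26.9% and 31.6% for quercetin cells against hypoxia, and 23.0% and 21.3% for quercetin cells against normoxia. Some counted genes were kept through 1 group alone: Cacna1b, Trpv2, Tpcn2 and Camkk2 through normoxia, and Trpm8 and Camk2b through hypoxia. Their direction in hypoxia against normoxia is not independent of that filter. The same holds for quercetin against whichever of these groups kept the gene.

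Among partners of store-operated entry, 6 of 10 fell and 3 rose in hypoxia against normoxia, with a median change of -0.40. Orai2, a second pore gene, fell by 0.77 ± 0.12 (adjusted p = 7.90e-04), and the scaffold genes Homer2 and Homer3 by 0.78 ± 0.09 and 0.90 ± 0.10 (adjusted p = 1.19e-04 and 1.15e-04). Saraf, which shuts store-operated entry down, rose by 1.15 ± 0.08 (adjusted p = 9.06e-06), and Cav1, the caveola coat protein, by 1.20 ± 0.13 (adjusted p = 9.08e-05). Set against hypoxia, quercetin cells had 3 higher and 3 lower. Stimate, which helps STIM proteins reach the plasma membrane, rose by 0.99 ± 0.11 (adjusted p = 1.09e-04), while Saraf differed by 0.09 ± 0.08 (adjusted p = 0.349) and Orai2 by -0.08 ± 0.12 (adjusted p = 0.612). Against normoxia 4 were higher and 3 lower with quercetin (2 and 4 under spike-in scaling), Saraf by 1.23 ± 0.08 and Homer2 by -1.41 ± 0.09 (adjusted p = 1.78e-05 and 1.87e-05).

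Of 13 store release genes besides Itpr1, 10 rose and 1 fell in hypoxia against normoxia, with a median of 0.49, and 4 rose and 2 fell under spike-in scaling, 5 and 0 under normexp background correction. Itpr2 and Itpr3, which encode the other inositol trisphosphate receptors, rose by 0.96 ± 0.10 (adjusted p = 7.54e-05) and 1.18 ± 0.19 (adjusted p = 9.20e-04). Phospholipase genes that make inositol trisphosphate rose too, Plcb4 by 1.25 ± 0.12 and Plcd1 by 0.92 ± 0.08 (adjusted p = 5.50e-05 and 3.17e-05). With quercetin against hypoxia 7 of 13 fell and none rose, among them Itpr2 by 1.95 ± 0.10 (adjusted p = 4.66e-06) and Itpr3 by 2.09 ± 0.19 (adjusted p = 5.26e-05), with Itpr3 well above background on 2 of the 3 quercetin arrays. Cd38, which makes calcium-mobilising nucleotides, fell by 2.70 ± 0.09 (adjusted p = 1.52e-06). Under spike-in scaling 1 gene of this list rose and 6 fell, and under quantile normalization 1 rose and 7 fell. Against normoxia 1 of 13 was higher and 5 lower with quercetin (0 and 8 under spike-in scaling, 0 and 5 under median scaling), with Cd38 lower by 2.21 ± 0.09 (adjusted p = 4.54e-06).

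Among pumps and exchangers, 2 of 10 rose and 3 fell in hypoxia against normoxia, and 2 rose and 7 fell under spike-in scaling. Slc8a1, the sodium-calcium exchanger, fell by 2.07 ± 0.31 (adjusted p = 5.98e-04), and Slc24a3, a potassium-dependent exchanger, by 1.96 ± 0.16 (adjusted p = 2.13e-05). Its relative Slc24a4 rose by 1.83 ± 0.17 (adjusted p = 4.84e-05), and Atp2b3, another plasma membrane pump gene, by 1.07 ± 0.12 (adjusted p = 1.03e-04). With quercetin against hypoxia 3 rose and 3 fell (3 and 1 under spike-in scaling), Slc8a1 rising by 1.32 ± 0.31 (adjusted p = 0.00681) and Slc24a3 by 0.84 ± 0.16 (adjusted p = 0.00216). Against normoxia 3 were higher and 3 lower with quercetin (1 and 6 under spike-in scaling), and Pln, the inhibitor of the store pump, was lower by 0.76 ± 0.23 (adjusted p = 0.0269).

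Calcium-binding proteins of the store rose in 12 of 14 cases in hypoxia against normoxia, and none fell, with a median of 0.68. Under spike-in scaling 5 rose and 2 fell. Casq2, a calsequestrin that buffers store calcium, rose by 1.08 ± 0.19 (adjusted p = 0.00140), and the chaperones Hspa5 and Hsp90b1 by 1.26 ± 0.14 and 1.17 ± 0.09 (adjusted p = 9.38e-05 and 1.70e-05). Quercetin cells had 6 of 14 lower than hypoxia and none higher (4 and 2 under quantile normalization), with Casq2 falling by 1.98 ± 0.19 (adjusted p = 6.57e-05). Against normoxia 8 were higher and 2 lower with quercetin, against 2 and 5 under spike-in scaling and 5 and 3 under median scaling.

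Other entry channels split. In hypoxia against normoxia 5 of 10 voltage-gated channel subunit genes rose and 2 fell, against 2 and 3 under spike-in scaling and 2 and 2 with slide as a block. Cacna1h, a T-type channel gene, rose by 1.87 ± 0.17 (adjusted p = 3.22e-05), and Cacna2d1, an accessory subunit gene, fell by 0.75 ± 0.15 (adjusted p = 0.00232). Of 10 TRP and other channel genes 4 rose, with Trpm8 kept through hypoxia alone, and 4 fell, with Trpv2 kept through normoxia alone. Trpc4 and Trpm4 rose by 1.97 ± 0.29 and 1.66 ± 0.09 (adjusted p = 5.00e-04 and 4.43e-06), and the mechanosensitive channel genes Piezo1 and Piezo2 fell by 0.93 ± 0.08 and 1.72 ± 0.13 (adjusted p = 2.34e-05 and 1.48e-05). With quercetin against hypoxia 1 rose and 5 fell in each of the 2 lists. The voltage-gated gene that rose, Cacna1b, was well above background on 0 of 3 hypoxia arrays and 2 of 3 quercetin arrays. The TRP falls include Trpm8, kept through hypoxia alone. Trpm4 fell by 1.49 ± 0.09 (adjusted p = 9.40e-06), and Trpc4 differed by -0.64 ± 0.29 (adjusted p = 0.0861). Against normoxia Piezo2 was lower by 2.49 ± 0.13 with quercetin (adjusted p = 8.78e-06).

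Downstream, 8 of 19 calmodulin, calcineurin and NFAT genes rose and 6 fell in hypoxia against normoxia, and 3 rose and 9 fell under spike-in scaling. Calcineurin subunits went both ways: Ppp3cc rose by 2.56 ± 0.11 (adjusted p = 2.01e-06) and Ppp3ca fell by 1.24 ± 0.09 (adjusted p = 1.39e-05). With quercetin against hypoxia 4 rose and 10 fell, with Ppp3cc falling by 1.81 ± 0.11 (adjusted p = 7.64e-06) and Ppp3ca rising by 1.00 ± 0.09 (adjusted p = 4.74e-05). Of 9 mitochondrial uptake genes 4 rose and 1 fell in hypoxia against normoxia, against 2 and 5 under spike-in scaling and 4 and 3 under quantile normalization. Mcu, the uniporter pore gene, fell by 0.38 ± 0.11 (adjusted p = 0.0133) and Mcub, its dominant-negative relative, rose by 0.99 ± 0.12 (adjusted p = 1.42e-04).

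**Figure D4:**
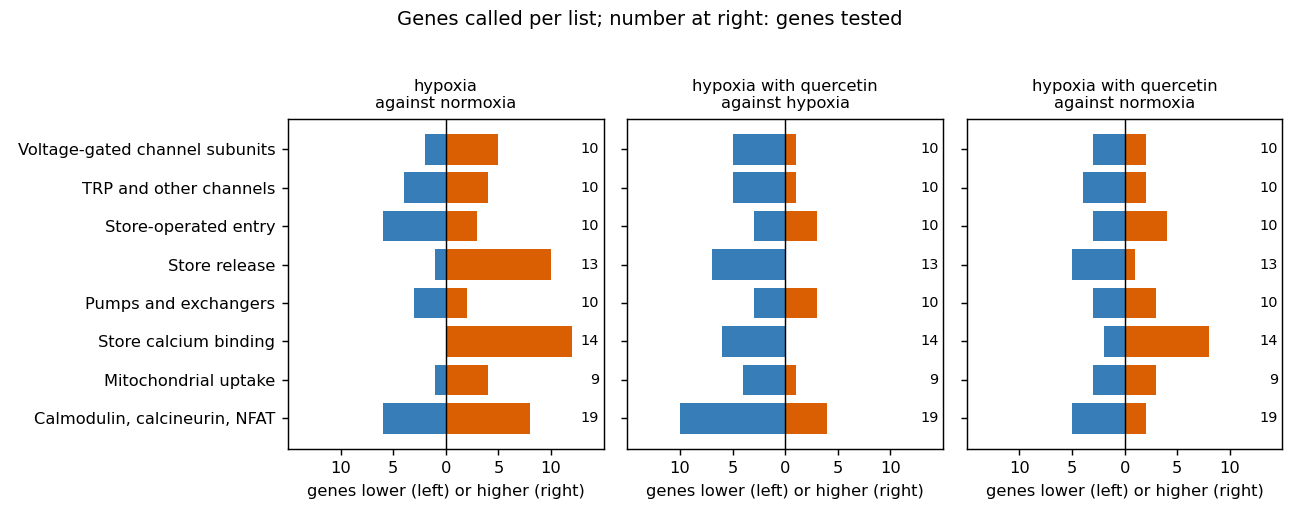
Number of genes called lower (blue, left) and higher (orange, right) in each of 8 lists, one panel per comparison, with the number tested at the right edge. In hypoxia against normoxia 10 of 13 store release and 12 of 14 store calcium-binding genes were higher, against 35.3% of all genes. Under spike-in scaling 4 and 5 were higher, where the median of all genes was -0.44.

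Markers of some other cell types moved with the groups. Of 6 epithelial markers 3 were tested, and all 3 keratins, Krt18, Krt8 and Krt7, rose in hypoxia against normoxia, while Epcam, Cdh1 and Krt19 were not kept. The log2 of their summed levels was 2.88 to 3.16 in hypoxia with quercetin, 5.30 to 5.55 in hypoxia and 1.88 to 2.44 in normoxia. Such a sum mostly reads the brightest probes of a list. For 6 fibroblast markers the sum was 8.78 to 9.07 with quercetin, 9.34 to 9.53 in hypoxia and 8.85 to 9.01 in normoxia. Col1a1, the brightest of them, had means of 8.79, 9.07 and 8.33 in that order. In hypoxia against normoxia Dcn, Lum and Fap fell, Col1a1 rose, and Pdgfra and S100a4 were not called. Dcn was kept through normoxia alone. With quercetin 0 were higher and 3 lower against hypoxia. Against normoxia 1 was higher and 5 lower with quercetin, with a median change of -2.45. Smooth muscle markers summed to 6.90 to 7.16 with quercetin, 8.56 to 8.65 in hypoxia and 7.40 to 8.20 in normoxia. Of the 8 tested, 5 rose and 0 fell in hypoxia against normoxia, and 0 rose and 7 fell with quercetin against hypoxia. Cnn1, the contractile protein calponin, rose by 1.33 ± 0.13 in hypoxia against normoxia and fell by 2.50 ± 0.13 with quercetin against hypoxia (adjusted p = 4.82e-05 and 4.66e-06). Myh11, smooth muscle myosin, rose by 0.83 ± 0.16 and fell by 1.45 ± 0.16 in the same comparisons (adjusted p = 0.00196 and 1.15e-04). Of 6 endothelial markers 0 with quercetin, 1 in hypoxia and 2 in normoxia were well above background on all 3 arrays. Pecam1, Vwf, Tek and Cldn5 were not kept in any group. Detection differed by array: it reached 53.0% of probes on hypoxia replicate 3 and 53.9% on quercetin replicate 1. Elsewhere it was 64.1% to 74.3%, and these counts are not levels. For quercetin, hypoxia and normoxia, means were -4.55, -4.84 and -4.98 for Kdr and -4.43, -3.20 and -3.84 for Cdh5. Of these 2 genes, 1 fell with quercetin against hypoxia, and 0 were called against normoxia in either hypoxic group. For 4 tested leukocyte markers of 6 the sum was 0.36 to 0.64 with quercetin, 0.82 to 0.97 in hypoxia and 0.17 to 0.50 in normoxia. In the same order, means were -2.76, -1.11 and -5.21 for Lyz2 and -0.17, -1.67 and -1.39 for Cd68. They were -1.49, 0.07 and -0.27 for Cd74 and -4.63, -4.92 and -5.12 for Ptprc. Of these, 2 rose and 0 fell in hypoxia against normoxia, and 1 rose and 2 fell with quercetin against hypoxia. Against normoxia 2 were higher and 1 lower with quercetin. The part of these markers in the calcium gene changes was not tested, and in bulk RNA fewer cells of a type and less RNA per cell cannot be told apart.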

How the data were processed

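The deposited files are scanner output of 9 one-colour Agilent arrays, and per the file headers they hold background-subtracted, processed Cy3 intensity from Feature Extraction 10.7.3.1. The labels name a microRNA labelling kit where the file headers name a gene expression protocol. The authors' deposited value table holds log2 values of the same arrays, with columns centred on a median of 5.713. The sources used here do not give their normalization.

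For this report, each array's log2 intensity was set against its 75th percentile over the non-control probes, spots of a probe were averaged, and a probe was kept if every array of some group had it well above background. The brightest kept probe stood for its gene. limma 3.58.1 in R 4.3.3 fitted the 3 group means over all 9 arrays (6 residual and 2.30 prior degrees of freedom), with Benjamini-Hochberg adjustment over 22106 genes. The script was tested on simulated data. Genes were named through RefSeq tables by accession, symbol or synonym, else by the files. The number of arrays limits the precision, and no spot was saturated.

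The calcium genes and lists were chosen with earlier results of these data known. All 9 genes are named throughout. Of each list, at most 8 genes per comparison with the largest change were eligible for naming, among those that passed with groups that did not overlap. The alternatives were other scalings, filters, probe rules, slide and replicate blocks and leaving out each array. Scan day as a block, the 2-fold minimum, the processing settings on further probes and the test between probes were added after seeing the data.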

Additional observations from a re-analysis of the deposited data

How the results depend on the processing

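Of 558 pairs of a calcium gene's result and an alternative setting, 488 kept their direction and side of the threshold, and 10 of 27 results did so in every setting tried. Spike-in scaling reversed Stim1 (-0.052) and Stim2 (-0.36, which passed) in quercetin against normoxia. Changes not called also turned sign there, Itpr1 to -0.28 under spike-in scaling and -0.047 with scan day as a block, and Trpc6 to -0.21 and -0.43, as did Cacna1c in quercetin against hypoxia without quercetin replicate 1 (-0.036). With the 2-fold minimum, chosen after seeing the data, 4 genes remained called in hypoxia against normoxia, 1 in quercetin against hypoxia and 0 in quercetin against normoxia. In quercetin against normoxia the main count of 4 became 1 under normexp background correction, 1 without the filter on dim probes, 1 with only the 6 arrays compared, and 2 with scan day as a block. Leaving out each array gave 7 to 9 genes in hypoxia against normoxia, 6 to 8 in quercetin against hypoxia and 1 to 5 in quercetin against normoxia. Counts of 2 or fewer there came without normoxia replicate 1 (2), quercetin replicate 1 (2) or quercetin replicate 3 (1). With slide as a fixed block 6 genes passed in hypoxia against normoxia, all lower. Under normexp, the pathway lists had 47 called genes in hypoxia against normoxia (main count 71) and 35 with quercetin against normoxia (main count 53). All genes called were then 8254, 7614 and 5499 in the 3 comparisons, against 14194, 12915 and 9794. Slide as a fixed block gave 9565 in hypoxia against normoxia, and scan day 5818 in quercetin against normoxia. Leaving out each array gave 60 to 73, 45 to 60 and 42 to 56 pathway genes. The further probes called in quercetin against normoxia were 5 under spike-in scaling, and 1 to 4 when each array was left out, with 1 without quercetin replicate 3, against 3. The replicate block gave 8, 7 and 3 calcium genes and 65, 55 and 49 pathway genes. Of the alternative settings, only normexp, the slide block, scan day and the 2-fold minimum have a count or share of all genes called here. Calcium and pathway counts under the other settings therefore cannot be set against a background. Between same-numbered arrays of different groups, deviations from the group means correlated at -0.27 to 0.02. With 3 arrays per group this cannot exclude pairing, and the labels do not say that the numbers pair arrays. The causes of these changes were not tested.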
